A study of Mus musculus with 7 samples.

Results

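The replication-dependent histone genes are the genes of the Hist1, Hist2, Hist3 and Hist4 clusters. Their rows were chosen by symbol alone, as every row of the table of RPKM values (reads scaled by gene length and library size) with a gene name that starts with Hist1h, Hist2h, Hist3h or Hist4h. This rule found 58 of the 11642 rows, 48 of Hist1, 8 of Hist2, 1 of Hist3 and 1 of Hist4. By class they were 5 H1, 15 H2A, 14 H2B, 11 H3 and 12 H4 rows, and 1 row that joined an H2A and an H3 gene. Of 67 protein-coding genes of these clusters in GENCODE M21, 9 are not in the table and were not analysed here. All 58 rows passed the filter on low values (a mean RPKM of at least 0.5 over the 4 samples).

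Histone H2A, H2B, H3 and H4 proteins form the core of the nucleosome, around which DNA is wound, and H1 binds the linker DNA between nucleosomes. The replication-dependent genes are transcribed in S phase, when new DNA has to be packed, and their mRNAs are lost when replication ends. Their mRNAs usually carry no introns and no poly(A) tail, and end instead in a conserved stem-loop. The protein SLBP binds this stem-loop for processing, translation and stability of the mRNAs. Myoblasts leave the cell cycle as they differentiate into muscle, so in a differentiating culture these mRNAs would lie chiefly in cells that still replicate DNA. Which cells held them was not measured here.

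C2C12 cells, an established mouse myoblast line, were sequenced on day 2 of differentiation after treatment with a scramble siRNA (si-SCR, 2 samples) or with siRNA #1 against the long non-coding RNA lnc-SMaRT (si-SMaRT, 2 samples). Each sample was 1 cell population of the line, with no genetic change, and only 1 of the study's siRNAs against lnc-SMaRT was sequenced. Libraries were made from total RNA after removal of rRNA, which keeps mRNAs without a poly(A) tail. Separate pull-downs of RNA with probes against lnc-SMaRT and against LacZ were sequenced in 1 library each.

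The effective library sizes were between 11291255 and 14312935 reads, and the reads on histone rows, recovered from the steps of the RPKM values, were between 20757 and 37113 per sample and between 1 and 3022 per row and sample. For 24 of the 58 rows these reads are lower limits, because the annotated length did not fix the common factor of the steps. The targeted RNA, lnc-SMaRT, had 19.1 and 15.9 RPKM in si-SCR 1 and 2 and 2.88 and 3.65 RPKM in si-SMaRT 1 and 2 (log2 fold change -2.39, standard error 0.28, adjusted p = 0.000882 from limma). Of 7 muscle markers, all were detected in every sample, with a summed RPKM of 8990.2 and 9337 in si-SCR and 6667 and 4097 in si-SMaRT. Their median log2 fold change was -0.65, and -0.23 without si-SMaRT 2. In 6 of the 7 both si-SMaRT samples were lower than both si-SCR samples, against 20.4% of all 11086 tested rows. By limma's adjusted p 0 of them passed, against 0.505% of all tested rows, and 3 had an unadjusted p under 0.05 with a lower level, against 5.6%. Of 7 markers of other cell types only Cd68, at between 0.788 and 1.13 RPKM, is in the table. The sample si-SMaRT 2 stood apart from the other 3 samples in what follows, and the medians of the histone classes and of the related lists are also given without it. The libraries differed in other ways too. By the paper's read statistics, si-SMaRT 1 lost a far larger share of its reads as rRNA and tRNA than the other 3 samples. The share of multiple alignments was highest in si-SCR 1 and lowest in si-SMaRT 2. Whether this bears on the histone values was not tested. In bulk RNA, fewer cells in S phase and less histone mRNA per cell cannot be told apart.

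The stem-loop was looked for first, because it marks an mRNA as replication-dependent by its sequence and was not used to choose the genes. The 16-base pattern of the histone stem-loop was found within 200 bases after the coding end in 55 of 58 protein-coding histone genes of the rows, between 21 and 58 bases after it with a median of 31 bases. The same search found it in 4 of 21871 other protein-coding genes (0.0183%). One gene of each class is printed to show how little the element varies, with the stem-loop in capitals, as DNA of the mRNA strand in GRCm38.
Hist1h1e, chr13:23621777-23621802 (-): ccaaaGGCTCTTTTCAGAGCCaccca
Hist1h2ah, chr13:22035122-22035147 (-): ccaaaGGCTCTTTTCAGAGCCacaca
Hist1h2bk, chr13:22036295-22036320 (+): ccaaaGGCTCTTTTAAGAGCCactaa
Hist2h3b, chr3:96269130-96269155 (+): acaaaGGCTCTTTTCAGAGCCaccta
Hist1h4d, chr13:23581945-23581970 (+): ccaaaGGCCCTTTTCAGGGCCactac

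The form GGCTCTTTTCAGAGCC was the most common and was held by 34 genes, and the 55 stem-loops had 8 forms. The genes in which the pattern was not found were Hist1h2an, Hist1h2bp and Hist2h2be. Hist2h2be also had the lowest mean level of all histone rows, with 0.633 and 0.648 RPKM in si-SCR and 0.608 and 0.560 RPKM in si-SMaRT. Some annotated genes, Hist1h2be, Hist1h2bc and Hist1h2bp among them, span more bases than their exons hold. Hist1h2bp has 706 exon bases within chr13:21787461-21789213. Such rows can include spliced transcripts.

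Of the Hist1 rows, 47 lay on chromosome 13 between 21715763 and 23764406, and the 8 Hist2 rows lay on chromosome 3 between 96219865 and 96270132. Hist1h2al, at chr13:51202727-51203065, lay outside this cluster and is annotated as a processed pseudogene in GENCODE M21. Many of these genes are near copies of each other, and how reads that align to several copies were counted is not given in the sources used here. The share of 100-base windows of the coding sequence that also occurred in another gene's transcripts had a median of 57.6% over 54 genes. It was lowest among H1 genes (median 9.80%) and higher among H2A (66.7%), H2B (51.8%), H3 (68.6%) and H4 genes (53.8%). The level of a single core histone gene is therefore less certain than that of an H1 gene. If such reads were not counted, the sums of the core classes would be too low as well. Levels of different classes are compared below with that limit.

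H4 was the class with the most RNA per length. Its summed RPKM was 1688 and 1424 in si-SCR 1 and 2 and 1412 and 699.9 in si-SMaRT 1 and 2. H3 summed to 785 and 653 RPKM in si-SCR and to 623 and 236 RPKM in si-SMaRT, and H2A to 528 and 435 RPKM in si-SCR and to 455 and 155 RPKM in si-SMaRT. In these 3 classes si-SMaRT 2 was far below the other 3 samples, while si-SMaRT 1 differed from si-SCR 2 by less than the si-SCR samples differed from each other.

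H2B summed to 799 and 677 RPKM in si-SCR and to 622 and 488 RPKM in si-SMaRT. The H1 sums were 716 and 562 RPKM in si-SCR and 567 and 538 RPKM in si-SMaRT, so that here si-SMaRT 1 lay between the si-SCR samples. Over all histone rows the sums were 4518, 3753, 3680.4 and 2119 RPKM in the same order, or 4136 ± 541 RPKM in si-SCR and 2900 ± 1104 RPKM in si-SMaRT (SD, n = 2 each). Apart from H1 and H2A, the sums of the 2 groups did not overlap. Nor did the sums of the whole table, at 529691 and 478897 RPKM in si-SCR and 428937 and 387393 RPKM in si-SMaRT. The si-SMaRT mean was 0.81 of the si-SCR mean over the whole table and 0.70 over all histone rows. By class this ratio was 0.86 in H1, 0.63 in H2A, 0.75 in H2B, 0.60 in H3 and 0.68 in H4. With 2 samples against 2 an exact permutation test could not pass 0.05, so none was made.

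**Figure D1:**
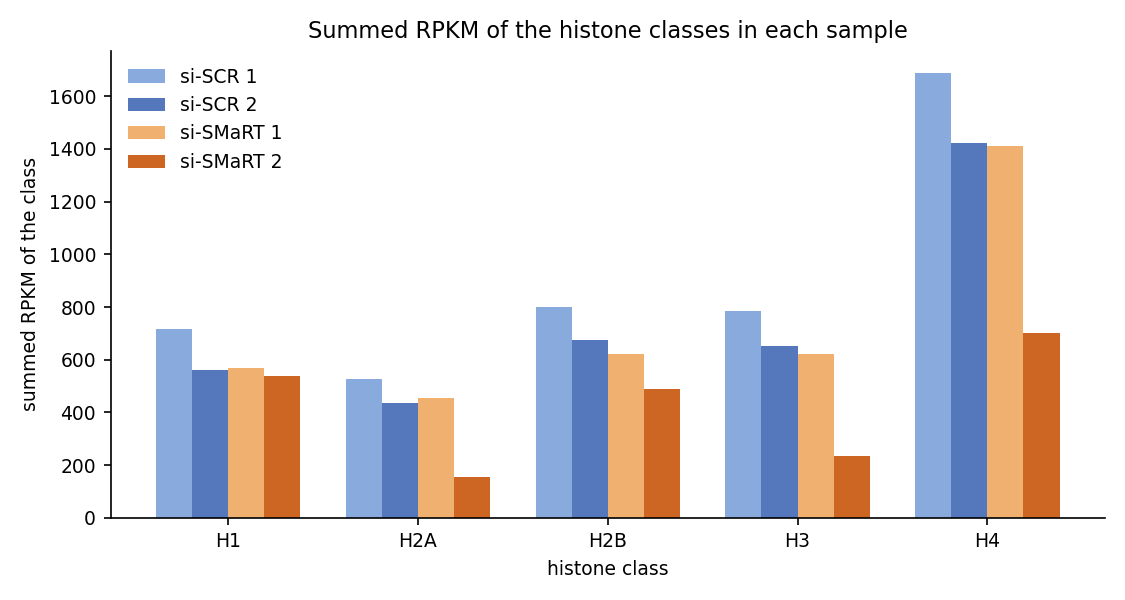
Summed RPKM of the rows of each histone class (y axis, linear from 0) in each of the 4 samples (bars, 1 sample each, without error bars). H4 is the highest class in every sample, and si-SMaRT 2 has the lowest bar of every class, from 699.9 RPKM in H4 down to 155 RPKM in H2A.

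The make-up of the histone RNA was nearly the same in 3 samples and different in si-SMaRT 2. H1 took 15.9%, 15.0% and 15.4% of the histone RPKM in si-SCR 1, si-SCR 2 and si-SMaRT 1, and 25.4% in si-SMaRT 2. H2B took between 16.9% and 18.0% in the first 3 samples and 23.0% in si-SMaRT 2. The shares of H2A (between 11.6% and 12.4%), H3 (between 16.9% and 17.4%) and H4 (between 37.4% and 38.4%) were 7.31%, 11.1% and 33.02% in si-SMaRT 2. Histone rows held 0.287%, 0.236%, 0.241% and 0.149% of all recovered reads in the 4 samples.

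The H1 genes, whose proteins bind linker DNA, had the class median of the log2 fold change that was nearest to 0. Between the si-SCR samples their median of replicate 2 minus replicate 1 was -0.36 on the log2 scale. It was also -0.36 in H2A, -0.33 in H3 and -0.20 in H2B and H4. The highest, Hist1h1e, had 213 and 166 RPKM in si-SCR and 165 and 184 RPKM in si-SMaRT, with a log2 fold change of -0.11 (standard error 0.27). Hist1h1b had 89.4 and 83.1 RPKM in si-SCR and 83.8 and 84.5 RPKM in si-SMaRT, the smallest log2 fold change of the class at -0.04 (standard error 0.26). These values overlapped between the groups.

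Among the H1 genes only Hist1h1c was lower in both si-SMaRT samples than in both si-SCR samples, at 153 and 117 RPKM in si-SCR and 108 and 89.6 RPKM in si-SMaRT (log2 fold change -0.45, standard error 0.27, adjusted p = 0.676 from limma). Hist1h1d had 147 and 118 RPKM in si-SCR and 130 and 98.7 RPKM in si-SMaRT, and Hist1h1a had 114 and 78.1 RPKM in si-SCR and 80.7 and 80.5 RPKM in si-SMaRT. The 5 log2 fold changes had a median of -0.22.

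The H2A genes, which encode a partner of H2B in the nucleosome core, had the lowest class median in level and the widest spread of differences. Hist1h2ab, the highest of them, had 75.02 and 60.9 RPKM in si-SCR and 60.5 and 28.4 RPKM in si-SMaRT (log2 fold change -0.70, standard error 0.32). Hist2h2ac had 63.4 and 53.6 RPKM in si-SCR and 56.9 and 23.5 RPKM in si-SMaRT. Hist1h2ac had 60.3 and 43.7 RPKM in si-SCR and 39.6 and 18.2 RPKM in si-SMaRT. In each of these 3 genes si-SMaRT 2 was the lowest sample, and in Hist1h2ab and Hist1h2ac the groups did not overlap.

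The pseudogene row Hist1h2al had 54.6 and 56.3 RPKM in si-SCR and 71.7 and 14.2 RPKM in si-SMaRT, so that its si-SMaRT samples were the highest and the lowest of the 4. Hist3h2a, in a row joined with its neighbour Trim17, had 12.3 and 8.44 RPKM in si-SCR and 8.49 and 5.09 RPKM in si-SMaRT, and its groups overlapped. The row that joins Hist2h2aa2 and Hist2h3c1 had 2.36 and 2.68 RPKM in si-SCR and 2.53 and 2.83 RPKM in si-SMaRT, and was 1 of 2 histone rows with a log2 fold change above 0 (0.09, standard error 0.29).

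The 3 lowest log2 fold changes of all histone rows were those of H2A genes. Hist1h2ai had 12.1 and 9.36 RPKM in si-SCR and 8.56 and 1.60 RPKM in si-SMaRT (log2 fold change -1.48, standard error 0.49, adjusted p = 0.268 from limma). Hist1h2ae had 32.0 and 20.6 RPKM in si-SCR and 21.9 and 4.10 RPKM in si-SMaRT (log2 fold change -1.42, standard error 0.50, adjusted p = 0.314 from limma). In both genes si-SMaRT 2 was below the other 3 samples by more than those 3 differed from each other.

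Hist1h2ah had 9.37 and 7.69 RPKM in si-SCR and 7.44 and 0.173 RPKM in si-SMaRT (log2 fold change -2.58, standard error 0.88, adjusted p = 0.286 from limma). These values stand for 48, 44, 34 and 1 reads. Its ratio of si-SMaRT 2 to si-SMaRT 1 was 0.0232, with an exact binomial 95% interval from 0.000571 to 0.138 that covers counting error only. Leaving out si-SMaRT 2 gave a log2 fold change of -0.19 (standard error 0.22).

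The H2B genes were less far apart between samples than the H2A genes. The highest, Hist1h2bg, had 138 and 111 RPKM in si-SCR and 111 and 61.7 RPKM in si-SMaRT (log2 fold change -0.58, standard error 0.30). Hist1h2bc had 89.4 and 79.6 RPKM in si-SCR and 82.1 and 78.6 RPKM in si-SMaRT (log2 fold change -0.07, standard error 0.26). Hist2h2bb had 77.2 and 56.9 RPKM in si-SCR and 49.2 and 68.5 RPKM in si-SMaRT, and was higher in si-SMaRT 2 than in si-SMaRT 1. Hist1h2bb, with 79.7 and 71.1 RPKM in si-SCR and 66.6 and 43.0 RPKM in si-SMaRT, was 1 of the 8 H2B rows, out of 14, in which both si-SMaRT samples were lower than both si-SCR samples.

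The H3 genes, which encode the core histone with the long tail that carries many of the known modifications, had the lowest class median of the log2 fold change, -0.97. Hist1h3f had 140.4 and 110.2 RPKM in si-SCR and 96.6 and 37.2 RPKM in si-SMaRT (log2 fold change -1.05, standard error 0.36, adjusted p = 0.286 from limma). Hist1h3e had 97.7 and 83.9 RPKM in si-SCR and 75.1 and 28.0 RPKM in si-SMaRT (log2 fold change -0.98, standard error 0.36). Hist1h3c had 93.7 and 78.6 RPKM in si-SCR and 83.9 and 37.1 RPKM in si-SMaRT. In all 3 genes si-SMaRT 2 was below the si-SCR samples by more than these differed from each other.

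Hist2h3b had 90.4 and 71.8 RPKM in si-SCR and 71.7 and 15.9 RPKM in si-SMaRT (log2 fold change -1.25, standard error 0.46, adjusted p = 0.342 from limma). Hist2h3c2, of which every 100-base window also occurs in another gene, had 1.70 and 1.25 RPKM in si-SCR and 2.08 and 2.19 RPKM in si-SMaRT (log2 fold change 0.52, standard error 0.31, adjusted p = 0.662 from limma). It was the only histone row with both si-SMaRT samples above both si-SCR samples, against 20.2% of all tested rows.

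The H4 genes include the most abundant histone RNA of the table. Hist1h4d had 350.3 and 264 RPKM in si-SCR and 279.9 and 181 RPKM in si-SMaRT (log2 fold change -0.44, standard error 0.30). Hist1h4h had 286 and 254 RPKM in si-SCR and 255 and 101 RPKM in si-SMaRT (log2 fold change -0.75, standard error 0.35). Hist1h4c had 228 and 198 RPKM in si-SCR and 181 and 87.2 RPKM in si-SMaRT. The fourth, Hist1h4f, had 178 and 166 RPKM in si-SCR and 160.1 and 90.2 RPKM in si-SMaRT. In all 12 H4 rows si-SMaRT 2 was the lowest sample, and the class median of the log2 fold change was -0.68.

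**Figure D2:**
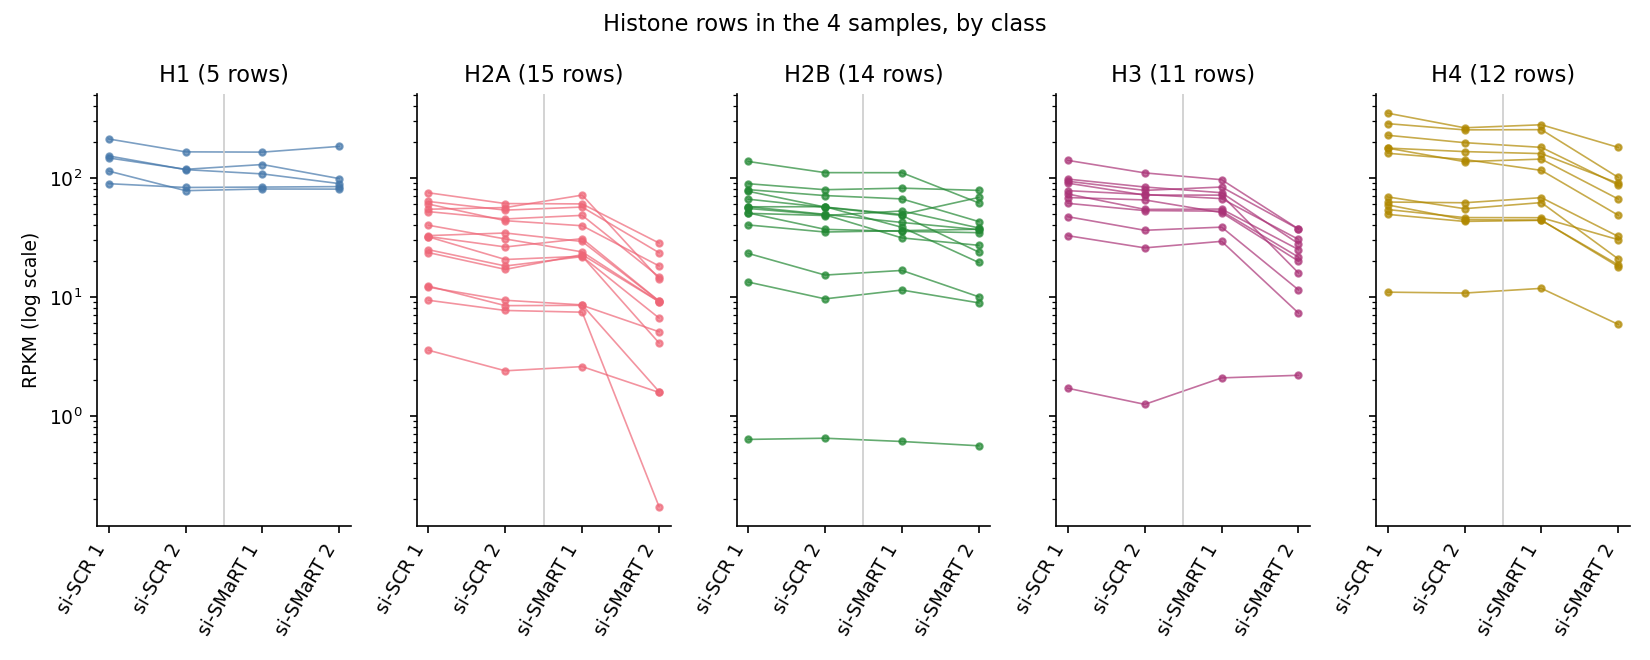
RPKM (y axis, log scale) of the histone rows in si-SCR 1, si-SCR 2, si-SMaRT 1 and si-SMaRT 2 (x axis), with 1 line per row and 1 panel per class; the joined H2A and H3 row is left out. The H1 lines change little between the si-SMaRT samples, and 51 of the lines are lowest in si-SMaRT 2, with Hist1h2ah at 0.173 RPKM the lowest point.

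The comparison of si-SMaRT with si-SCR asked which RNAs differ when lnc-SMaRT is depleted. Of 58 histone rows 56 had a log2 fold change under 0, against 47.7% of all tested rows, and their median was -0.68, against 0.02 over all 11086 tested rows. The medians were -0.22 in H1, -0.82 in H2A, -0.37 in H2B, -0.97 in H3 and -0.68 in H4. By limma's adjusted p, 0 of the 58 histone rows passed the threshold of 0.05, against 56 of 11086 tested rows (0.505%), and with voom on the recovered reads 0 passed as well. An unadjusted p under 0.05 with a lower level in si-SMaRT was found in 24 of 58 histone rows, against 5.6% of all tested rows. These were 8 H2A, 3 H2B, 9 H3 and 4 H4 rows and no H1 row. The smallest adjusted p of a histone row was 0.175 (limma), that of Hist1h2ap.

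The si-SCR samples both exceeded both si-SMaRT samples in 26 of 58 histone rows, against 20.4% of all tested rows. Of these 1 was an H1, 6 were H2A, 8 H2B, 6 H3 and 5 H4 rows. The lowest of the 4 samples was si-SMaRT 2 in 51 of 58 histone rows, against 34.3% of all tested rows. It was the lowest in all 15 H2A and all 12 H4 rows, in 12 of 14 H2B, 10 of 11 H3 and 2 of 5 H1 rows. In si-SMaRT 1 alone, 28 of 58 histone rows were below both si-SCR samples, against 42.3% of all tested rows, a share near that of the table as a whole.

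The 2 si-SMaRT samples therefore gave different values. Against the mean of si-SCR, the median of the histone rows was -0.16 in si-SMaRT 1 and -1.24 in si-SMaRT 2 on the log2(RPKM + 0.1) scale. In si-SMaRT 1 the class medians lay together, between -0.19 in H1 and -0.11 in H4. In si-SMaRT 2 they spread from -0.23 in H1 and -0.45 in H2B to -1.26 in H4, -1.67 in H2A and -1.69 in H3. Without si-SMaRT 2, limma called 1 of 58 histone rows, Hist1h2bf, against 8.49% of all tested rows. That gene had 55.4 and 49.0 RPKM in si-SCR and 31.3 and 27.1 RPKM in si-SMaRT, and thus differed little within its groups. Without si-SMaRT 1, limma called 45 of 58 histone rows, all lower, against 26.2% of all tested rows. They were all 15 H2A, all 12 H4, 10 of 11 H3, 7 of 14 H2B and 1 of 5 H1 rows. In either fit the lone si-SMaRT sample was assumed to vary like the si-SCR samples.

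**Figure D3:**
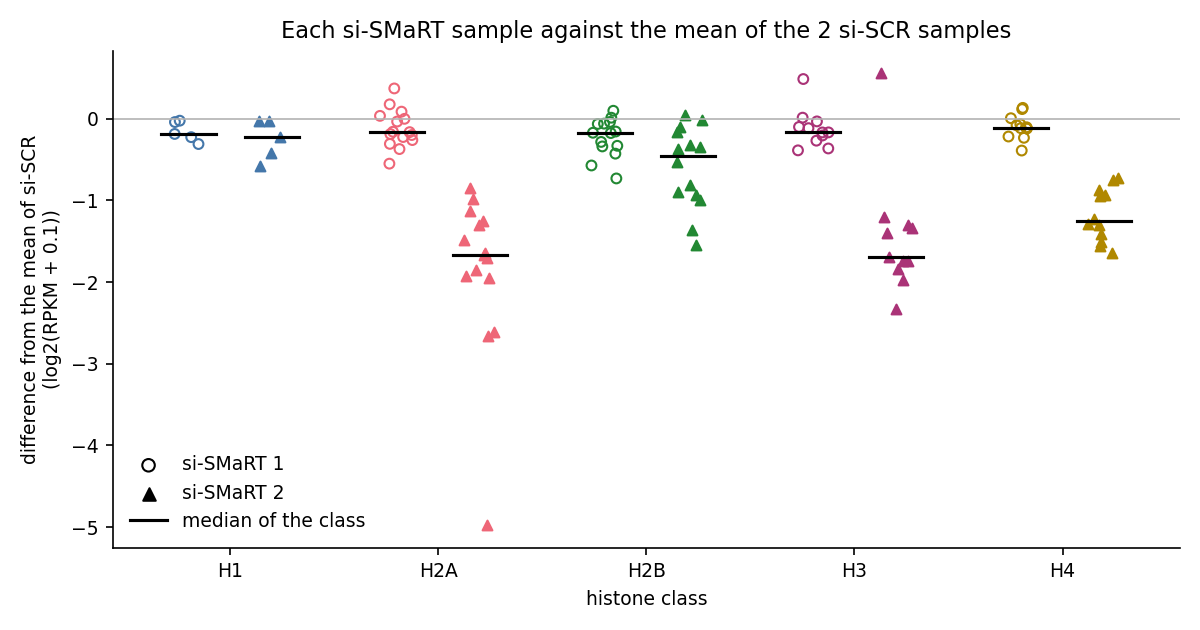
Difference of si-SMaRT 1 (open circles) and si-SMaRT 2 (filled triangles) from the mean of the 2 si-SCR samples on the log2(RPKM + 0.1) scale (y axis), with 1 point per histone row and a bar at the median of each class. The medians of si-SMaRT 1 lie between -0.19 and -0.11, and those of si-SMaRT 2 between -1.69 in H3 and -0.23 in H1.

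Replicate 2 was below replicate 1 in most histone rows of both groups, but by different amounts. Between the si-SCR samples the median difference was -0.29 on the log2 scale, 53 of 58 histone rows were below 0 (48.8% of all tested rows were), and no histone row was below -1. Between the si-SMaRT samples the median was -1.09, 52 of 58 rows were below 0, and 32 of 58 were below -1, against 5.2% of all tested rows. The 32 rows were 13 H2A, 10 H3, 8 H4 and 1 H2B. The class medians of si-SMaRT 2 minus si-SMaRT 1 were -0.003 in H1, -0.28 in H2B, -1.10 in H4, -1.35 in H3 and -1.65 in H2A, and over all tested rows the median was -0.01.

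The classes also differ in base composition. The median GC content of the coding sequence was 61.5% in H1, 62.7% in H2B, 64.9% in H4, 66.9% in H3 and 69.0% in H2A genes, against 52.8% over all rows with a coding sequence. The first 90 coding bases of 1 gene of each class are printed as examples, with G and C in capitals and on the mRNA strand of GRCm38. The H2A and H2B genes shown are neighbours that are transcribed in opposite directions.
Hist1h1b, chr13:21780465-21780554 (-): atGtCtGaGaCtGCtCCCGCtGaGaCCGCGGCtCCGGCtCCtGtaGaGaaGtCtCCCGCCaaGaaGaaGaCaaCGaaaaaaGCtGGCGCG
Hist1h2bk, chr13:22035887-22035976 (+): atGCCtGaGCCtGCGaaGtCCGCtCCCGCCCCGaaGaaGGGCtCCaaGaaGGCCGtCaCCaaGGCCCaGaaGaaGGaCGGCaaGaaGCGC
Hist1h4d, chr13:23581602-23581691 (+): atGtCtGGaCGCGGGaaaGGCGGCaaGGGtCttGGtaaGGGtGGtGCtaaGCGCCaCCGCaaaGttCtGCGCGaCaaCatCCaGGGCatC
Hist2h3b, chr3:96268694-96268783 (+): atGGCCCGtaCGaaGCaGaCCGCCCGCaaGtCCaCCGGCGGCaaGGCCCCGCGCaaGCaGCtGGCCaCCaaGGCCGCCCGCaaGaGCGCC
Hist1h2ah, chr13:22035463-22035552 (-): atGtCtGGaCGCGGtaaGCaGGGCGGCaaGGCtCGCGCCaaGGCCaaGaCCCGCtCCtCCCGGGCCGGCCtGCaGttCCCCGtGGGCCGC

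G and C made up 58.9%, 64.4%, 60%, 73.3% and 73.3% of these pieces in the order shown, and 57.3%, 62.7%, 64.1%, 69.3% and 70.03% of the whole coding sequences. The genes shown are not all typical. Hist1h1b lay below the median of its class, and Hist2h3b and Hist1h2ah had the highest coding GC content of theirs. The H4 piece held less G and C than the H2B piece, unlike the medians of these classes. Lysine-rich stretches of H1 and H2B are read from codons with many A bases.

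Across 55 histone rows with a coding sequence, the value of si-SMaRT 2 minus si-SMaRT 1 went down with the GC content of that sequence (Spearman's rho -0.77, Pearson's r -0.71). For the difference between the si-SCR samples rho was -0.11. These are descriptions across genes that share the same 4 libraries and much of their sequence, and genes are not independent replicates. The same relation ran through the table, with a rho of -0.80 over 9672 rows between the si-SMaRT samples and of 0.40 between the si-SCR samples.

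Histone rows were set beside other rows of like GC content. Among rows with a coding GC content of at least 65%, the median of si-SMaRT 2 minus si-SMaRT 1 was -1.35 over 29 histone rows and -0.58 over 178 other rows. Between 60% and 65% it was -0.63 over 21 histone rows and -0.74 over 845 others, and between 55% and 60% it was -0.003 over 5 histone rows and -0.51 over 2455 others. By these medians the histone rows were lower than the others only in the class with the highest GC content. The range between 60% and 65% mixes histone classes. In it the H4 rows ran from -1.29 (Hist4h4) to -0.61 (Hist1h4i). The H2B rows in it ran from -1.02 (Hist1h2bk) to 0.04 (Hist1h2bl), so single rows lay on either side of the median of the others. Between the si-SCR samples, the medians of the same 3 classes were -0.30, -0.22 and -0.44 over histone rows and 0.12, 0.18 and 0.14 over the others, with opposite signs.

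When the trend of each sample with the GC content of exons was removed, the median of si-SMaRT 2 minus si-SMaRT 1 was -0.40 over histone rows and the median log2 fold change was -0.47. In that fit limma called 3 of 56 histone rows (Hist1h2ap, Hist1h2bj and Hist1h4n, all lower), against 4.78% of all tested rows. For some genes the annotated exons hold far more bases than the coding sequence, at a lower GC content. Such exons may not match the bases that were counted. Hist1h1d has 7425 exon bases with 39.8% GC against 666 coding bases, and Hist1h2ac has 2482 against 393. With the exon GC trend removed these genes went lower, from -0.39 to -1.10 and from -1.12 to -1.41. The median over histone rows rose from -1.09 to -0.40. The part of base composition in the difference between the si-SMaRT samples was not tested.

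**Figure D4:**
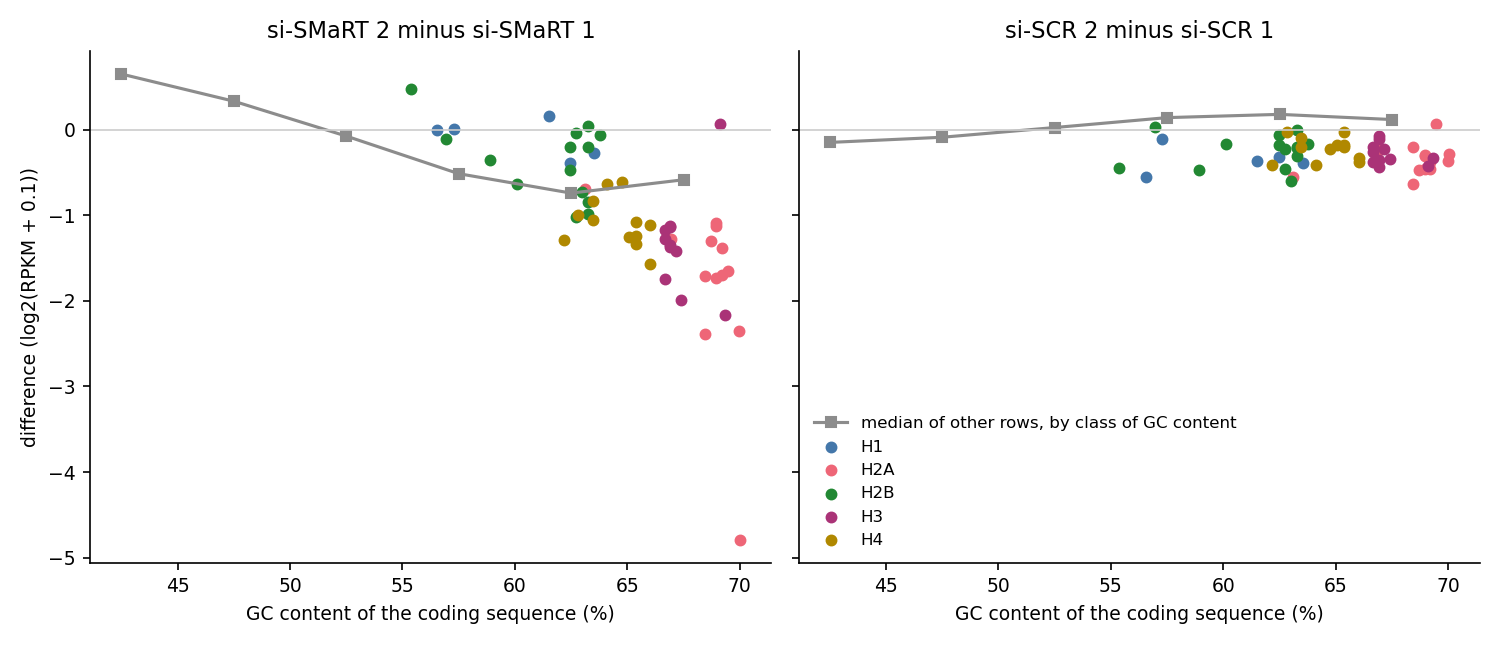
Difference between the 2 samples of si-SMaRT (left) and of si-SCR (right) on the log2(RPKM + 0.1) scale (y axis) against the GC content of the coding sequence (x axis, percent), with 1 point per histone row coloured by class. Grey squares are medians of all other tested rows in classes of GC content, with the first and last class, open on 1 side, drawn at the ends of the line. On the left the points run from about 0 for H1 to -4.79 for Hist1h2ah and lie below the squares at the highest GC content, where the medians are -1.35 and -0.58, and on the right they show no such slope.

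Some H2A and H2B genes share 1 promoter region and are transcribed away from each other. There were 9 such pairs in the table, with between 175 and 301 bases between their annotated gene starts in GENCODE M21. For some genes, such as Hist1h2ak and Hist1h2bn, the annotated gene is the coding sequence only. The RefSeq starts used below for promoter regions can differ from these. In 9 of 9 pairs the value of si-SMaRT 2 minus si-SMaRT 1 was lower for the H2A gene than for its H2B partner, with medians of -1.71 and -0.21. The H2A gene was also the richer in GC in every pair. The coding GC content was between 66.9% and 70.03% in the H2A genes and between 57.0% and 63.8% in the H2B genes. The pairs thus repeat the difference between the classes, and the part of base composition in it was not tested. The gap between partners had a median of -1.49 and ran from -3.77 (Hist1h2ah and Hist1h2bk) to -0.68 (Hist1h2ag and Hist1h2bj). The log2 fold change between the groups was lower for the H2A gene in 7 of 9 pairs. In the pair Hist1h2ak and Hist1h2bn, the H2A gene had 48.5 and 14.8 RPKM in the si-SMaRT samples and the H2B gene 35.6 and 34.7 RPKM.

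**Figure D5:**
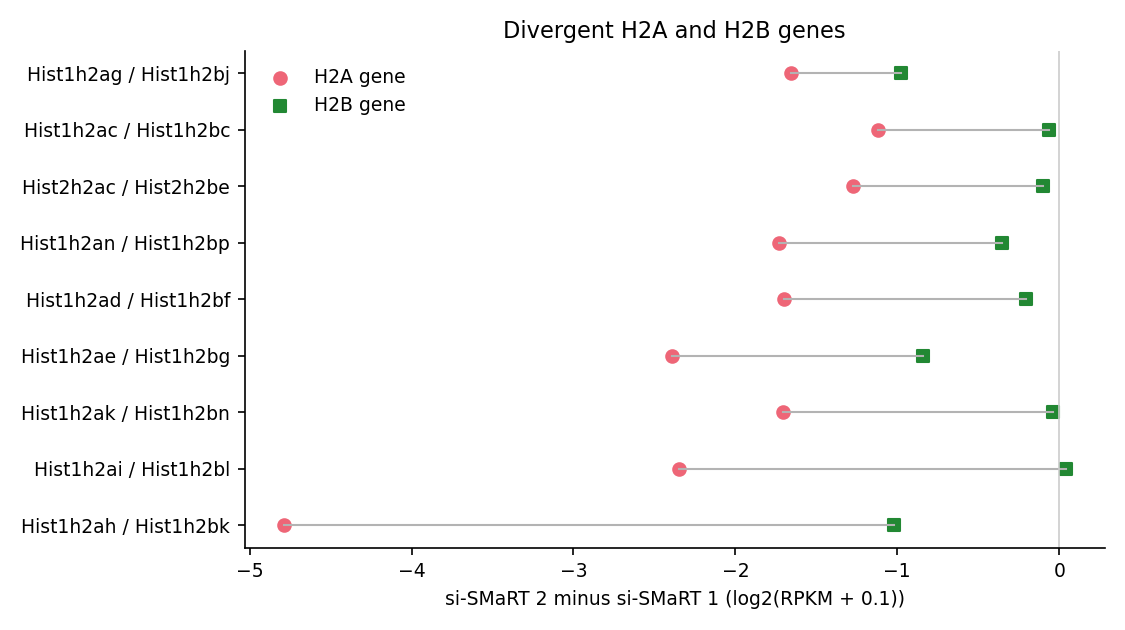
Values of si-SMaRT 2 minus si-SMaRT 1 on the log2(RPKM + 0.1) scale (x axis) for the 9 divergent pairs of an H2A gene (circles) and an H2B gene (squares), joined by a line and ordered by the gap. The H2A gene is to the left in all 9 pairs, with medians of -1.71 for H2A and -0.21 for H2B, and has the higher coding GC content in each pair.

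The promoter regions of the pairs with the widest and the narrowest gap are shown from the H2A side, from 250 bases before to 50 bases after the start in RefSeq (GRCm38.p6). Capitals mark the motifs TATAAA on the strand shown, and CCAAT and the octamer ATGCAAAT on either strand, where CCAAT reads ATTGG and the octamer ATTTGCAT.
Hist1h2ah, chr13:22035594-22035893 (-): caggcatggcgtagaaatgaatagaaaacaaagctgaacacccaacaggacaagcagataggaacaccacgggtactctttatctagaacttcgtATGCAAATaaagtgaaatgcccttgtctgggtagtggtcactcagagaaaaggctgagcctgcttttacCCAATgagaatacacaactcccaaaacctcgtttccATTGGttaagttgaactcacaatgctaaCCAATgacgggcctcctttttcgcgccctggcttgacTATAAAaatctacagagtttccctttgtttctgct
Hist1h2ag, chr13:22042900-22043199 (-): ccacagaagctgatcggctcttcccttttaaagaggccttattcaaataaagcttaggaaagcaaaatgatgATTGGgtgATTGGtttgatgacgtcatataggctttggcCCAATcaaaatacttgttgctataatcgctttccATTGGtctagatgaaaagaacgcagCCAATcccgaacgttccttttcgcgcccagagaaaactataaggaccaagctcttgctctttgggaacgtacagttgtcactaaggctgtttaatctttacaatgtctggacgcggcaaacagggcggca

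Promoter regions of this length were matched for 52 of the histone genes. CCAAT, the letters bound by NF-Y, was found in 44 of 52, against 37.4% of all 32851 promoter regions, and these were all H1, H2A, H2B and H3 promoters but only 3 of 11 of H4. TATAAA was found in 25 of 52, against 8.32% of all promoter regions. The octamer, the letters bound by OCT1, was found in 6 of 14 H2A and 5 of 12 H2B promoters and in none of H1, H3 or H4, against 1.74% of all promoter regions. A match of these letters is a description of the sequence and not a site of binding.

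The genes that make, switch on and use histone mRNA were taken from 5 lists of 110 genes, of which 103 are in the table. By limma's adjusted p, 0 of the 103 rows passed, and an unadjusted p under 0.05 was found in 7 (6.80%), all higher in si-SMaRT, against 3.49% of all tested rows in that direction. Their median log2 fold change was 0.19, and 0.12 without si-SMaRT 2.

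Among 18 factors of histone transcription and 3′ processing the median log2 fold change was 0.22, and 0.02 without si-SMaRT 2. Slbp, which encodes the protein that binds the stem-loop, had 13.2 and 11.5 RPKM in si-SCR and 12.3 and 18.7 RPKM in si-SMaRT (log2 fold change 0.30, standard error 0.28). Npat, which encodes the coactivator of histone transcription at histone locus bodies, had 4.89 and 4.80 RPKM in si-SCR and 5.50 and 8.63 RPKM in si-SMaRT (log2 fold change 0.50, standard error 0.29, adjusted p = 0.655 from limma). Both genes were highest in si-SMaRT 2. Their coding GC content was 49.7% and 43.0%, a range in which other rows were higher in si-SMaRT 2 than in si-SMaRT 1 as well (medians 0.65 below 45% and 0.33 between 45% and 50%). Over the list, the median of si-SMaRT 2 minus si-SMaRT 1 was 0.21, and -0.02 with the exon GC trend removed. The rows with the highest level of this list were Snrpb, at between 71.1 and 98.4 RPKM, and Cstf2t, at between 43.9 and 48.9 RPKM.

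Among 18 regulators of S phase entry the median was 0.21, and 0.25 without si-SMaRT 2. Ccne2, a cyclin that activates CDK2, had 8.16 and 6.46 RPKM in si-SCR and 9.60 and 20.9 RPKM in si-SMaRT (log2 fold change 0.96, standard error 0.33, adjusted p = 0.302 from limma). Ccne1 had 4.75 and 5.66 RPKM in si-SCR and 8.48 and 7.95 RPKM in si-SMaRT (log2 fold change 0.65, standard error 0.27, adjusted p = 0.451 from limma). Both cyclins were higher in both si-SMaRT samples than in both si-SCR samples. This held for 10 of the 18 rows, against 20.2% of all tested rows. Ccne2 had a coding GC content of 39.8%. Other rows below 45% had a median of 0.65 for si-SMaRT 2 minus si-SMaRT 1. E2f1, a transcription factor of S phase genes, had 2.28 and 2.18 RPKM in si-SCR and 3.88 and 1.77 RPKM in si-SMaRT, and its groups overlapped. The cell cycle inhibitors Cdkn1a, at between 245 and 378 RPKM, and Cdkn1c, at between 183 and 279.6 RPKM, were the highest rows of the list.

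Among 36 DNA replication genes the median was 0.25, and 0.23 without si-SMaRT 2. Both si-SMaRT samples were above both si-SCR samples in 18 of the 36, against 20.2% of all tested rows. The summed RPKM of these genes was 465 and 418 in si-SCR and 501 and 544 in si-SMaRT. Pcna, the sliding clamp of DNA polymerase, had 56.0 and 45.9 RPKM in si-SCR and 47.6 and 76.4 RPKM in si-SMaRT, and Rrm1, a subunit of ribonucleotide reductase, had 62.4 and 50.9 RPKM in si-SCR and 50.2 and 61.5 RPKM in si-SMaRT. The groups overlapped for both genes. Over the list, the median of si-SMaRT 2 minus si-SMaRT 1 was 0.06, and -0.04 with the exon GC trend or -0.13 with the coding GC trend removed.

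The 11 rows of replication-independent histone variants, most of which are made throughout the cell cycle from polyadenylated mRNAs, had a median log2 fold change of -0.06, and 0.12 without si-SMaRT 2. H3f3b, which encodes the variant H3.3, had 206 and 187 RPKM in si-SCR and 181 and 222 RPKM in si-SMaRT. H3f3a, which encodes the same protein, had 169.9 and 142 RPKM in si-SCR and 122 and 220.3 RPKM in si-SMaRT. Both were highest in si-SMaRT 2, while 5 of the 11 variant rows were lowest in it. The variants with the highest coding GC content were among the latter. H2afx (69.7%) had 31.2 and 32.6 RPKM in si-SCR and 45.1 and 14.4 RPKM in si-SMaRT, and H2afj (68.2%) had 18.5 and 19.8 RPKM in si-SCR and 24.1 and 7.99 RPKM in si-SMaRT. H1fx (68.8%) had 1.69 and 1.34 RPKM in si-SCR and 2.26 and 0.689 RPKM in si-SMaRT, so that in these 3 genes si-SMaRT 1 was the highest and si-SMaRT 2 the lowest sample. Over 20 histone chaperones the median was 0.17, and 0.005 without si-SMaRT 2. The highest of them were Set, at between 90.1 and 138 RPKM, and Rbbp7, at between 87.0 and 112 RPKM.

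In the pull-down libraries, 1 of 345 peaks of the lnc-SMaRT probes lay on a histone gene and 0 of 336 peaks of the LacZ probes did. It covered chr13:23571601-23571800 on the + strand and overlapped Hist1h2bg, with a p-value of 0.000411 from the authors' peak caller. There was 1 library of each kind, so no test was made. The paper describes calling LacZ peaks against the input only. Whether the deposited lnc-SMaRT peaks were called against the input or against LacZ is not given in the sources used here.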

How the data were processed

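Total RNA-seq of 2 si-SCR and 2 si-SMaRT samples and the peaks of 2 pull-down libraries were used. The authors made the RPKM values with Trimmomatic, Bowtie 2 (removal of rRNA and tRNA), TopHat2 on GRCm38 with Ensembl genes, htseq-count in intersection-strict mode, TMM normalization and edgeR, after mitochondrial reads and genes with low CPM had been removed. Each peak has a p-value that the authors obtained with Piranha. Tool versions are not given in the sources used here.

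Log2(RPKM + 0.1) values of all rows whose mean RPKM reached 0.5 were compared between the groups by limma (version 3.58.1, R version 4.3.3) with a trended prior variance. P-values were adjusted by the Benjamini-Hochberg method over these rows, with a threshold of 0.05. Fold changes are on that log2 scale, which understates changes of low rows. Replicates are separate populations of 1 cell line, so p-values measure the spread between these. Reads were recovered from the steps between RPKM values for all 11642 rows, within a relative tolerance of 1e-09, and the gene lengths of GENCODE M21 fixed the common factor of 5903 rows. GC content, stem-loops and shared windows came from GENCODE M21 on GRCm38, and promoters from RefSeq (GRCm38.p6). The fit and the recovery were tested on simulated data.

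Named were the 4 rows of each class with the highest mean RPKM, the 3 lowest and 3 highest log2 fold changes, joined rows, and fixed genes of related lists. Hist1h2bf, Hist1h2ap, H2afx, H2afj, H1fx, the rows without a stem-loop and the rows of divergent pairs were named after their values were seen. The members and lists were chosen with earlier results of these data known. The alternatives were other pseudocounts, filters, normalizations, prior variances and blocks, voom on recovered reads, removal of GC trends (loess, span 0.3), and leaving out each sample.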

Additional observations from a re-analysis of the deposited data

How the results depend on the processing

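The median log2 fold change of the histone rows was under 0 in every fit, between -0.81 and -0.47 in those with all 4 samples or without a si-SCR sample. It ran from -1.24 without si-SMaRT 1 to -0.16 without si-SMaRT 2, and the counts of rows past the threshold when 1 sample was left out ran from 24 (without si-SCR 1) to 2908 (without si-SMaRT 1) of all tested rows, from 1 to 45 of the histone rows and from 0 to 24 of the related rows, against 56, 0 and 0 with all samples. The 1 histone row was Hist1h2ah without either si-SCR sample and Hist1h2bf without si-SMaRT 2. Of all tested rows, 37 passed under quantile normalization and 108 with voom on recovered reads, with no histone row. With the exon GC trend removed 478 rows passed, 3 histone and 6 related rows among them. Removal of the coding GC trend, which was added with the values known, gave 404 rows, 4 histone rows (Hist1h2ap, Hist1h2bj, Hist1h3d and Hist1h4n) and 3 related rows. The median of si-SMaRT 2 minus si-SMaRT 1 over histone rows was -1.09, and -0.40 with the exon and -0.41 with the coding GC trend removed. The exon value has the limit given above for genes with long annotated exons. The classes stayed apart with the coding GC trend removed. Their medians were 0.37 in H1, 0.23 in H2B, -0.42 in H4, -0.67 in H3 and -0.96 in H2A. Across 55 histone rows this difference still went down with the coding GC content (Spearman's rho -0.75). With the exon GC trend removed, H2A, H3 and H4 lay closer together. The medians were then 0.29 in H1, -0.14 in H2B, -0.58 in H4, -0.64 in H3 and -0.46 in H2A, and rho with the coding GC content was -0.37. Removing a trend tests fewer rows, and the cause of the other changes was not tested. Both pseudocounts, both filters and the untrended prior variance left 0 histone rows past the threshold.

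The samples share replicate numbers, but same-numbered samples did not deviate together (Pearson's r -0.36 across 11086 rows), so the numbers are not shown to pair them. With the replicate block 96 rows and 3 histone rows passed (Hist1h2ae, Hist1h2ah and Hist1h2ai), and with the replicate block and the GC trend removed 135 rows and 2 histone rows (Hist1h2ap and Hist1h2bj). With crossed numbers, a pairing added with the values known, 487 rows, 19 histone rows and 3 related rows passed. Among values of the 27 named histone rows under the other settings, crossed numbers left aside, 372 stayed on their side of the threshold. The others passed it, most of them without si-SMaRT 1, and none passed it with the opposite sign. Some log2 fold changes that did not pass it changed sign. That of Hist1h2al went from -0.79 to 0.37 without si-SMaRT 2. That of Hist1h1b went from -0.04 to 0.10 with the exon GC trend removed. With crossed numbers 7 of the 27 passed, all lower. With 2 samples a group, the spread between the si-SMaRT samples sets what could be called, and counts under 50 reads limit rows such as Hist1h2ah.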
